A study of Mus musculus with 17 samples.

Results

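The BCL2 family genes examined here were 10 of the 43430 gene models counted: the effectors Bax and Bak1, the BH3-only genes Bbc3 (PUMA), Pmaip1 (NOXA), Bid, Bad and Bcl2l11 (BIM), and the pro-survival genes Bcl2, Bcl2l1 (BCL-XL) and Mcl1. They were selected by symbol, as a family and with earlier results of these data known, and each symbol matched 1 row of both count tables. All mice were C57BL/6J and 2 months old, and the cells were type 2 alveolar epithelial (AT2) cells, which make surfactant in the lung. In the first set, naive mice received vehicle (4 libraries) or a small-molecule inhibitor of the integrated stress response, ISRIB (4 libraries), and cells were sorted by flow cytometry 24 hours later; poly(A) RNA libraries were made from 3 ng of RNA. In the second set, AT2 cells came from naive mice (4 libraries) or from mice 14 days after bleomycin (5 libraries), a DNA-damaging drug used to model lung fibrosis; stranded total-RNA libraries were made from 0.35 ng of RNA. The labels of both groups of the second set give the treatment as vehicle and their titles name saline. Titles of the vehicle libraries of the first set name saline too. The labels do not say whether libraries of a group came from separate animals, so the p-values measure only the spread between these libraries, which may be technical.

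BCL2 family proteins control the permeability of the outer mitochondrial membrane. Bax and Bak1 form pores that release cytochrome c and start the caspase cascade; the pro-survival proteins hold them in check, and BH3-only proteins bind pro-survival members or activate the effectors directly. In alveolar epithelium this intrinsic route is one of the forms of cell death studied after bleomycin. Much of the family's regulation is at the level of protein cleavage, phosphorylation and turnover, which RNA counts do not measure.

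The BH3 motif is the short helix through which the pro-death proteins dock on their partners, and its 9-codon core is shown for the family genes other than Pmaip1 because it is the sequence feature that the pro-death and the pro-survival genes share. Sequences were read from the GENCODE M21 transcripts, coding strand, with the codons of the conserved leucine and aspartate in capitals:
Bax: tgtCTCcggcgaattggaGATgaactg
Bak1: cagCTTgctctcatcggaGATgatatt
Bbc3: cagCTGcggcggatggcgGACgacctc
Bid: catCTCgcccaaataggcGATgagatg
Bad: gagCTCcgaaggatgagcGATgagttt
Bcl2l11: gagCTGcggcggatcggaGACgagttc
Bcl2: accCTCcgccgggctgggGATgacttc
Bcl2l1: gcgCTGagagaggcaggcGATgagttt
Mcl1: accCTGcggcgcgtgggcGACggcgtg

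Deposited counts totalled 10493574 to 15727139 per library in the poly(A) set and 3295257 to 6333166 in the total-RNA set, where gene models of ribosomal RNA took 15.8% to 29.5% of the counts. The 8 AT2 markers, among them the surfactant gene Sftpc, summed to 169075 to 181909 CPM (counts scaled to the TMM-normalised library size) in the poly(A) libraries and to 45648 to 83705 CPM in the total-RNA libraries. Fibroblast markers summed to 3.87 to 10.1 CPM in the naive libraries and to 17.5 to 115 CPM after bleomycin. The highest sums were in bleomycin 2 (115 CPM) and bleomycin 1 (54.5 CPM), which also had the lowest AT2 sums (54396 and 45648 CPM). Of 7 fibroblast markers 3 could be tested, and all 3 were higher after bleomycin. So were 4 of 6 markers of alveolar type 1 cells (sums of 963 to 1192 CPM against 1404 to 1771 CPM) and 2 of 5 endothelial markers. Of the 8 AT2 markers, 1 was called higher and 1 lower after bleomycin. Over all genes tested in this set 11.2% were called higher and 9.31% lower. With ISRIB, 1 of the 8 AT2 markers was called lower, against 1.10% of all genes tested in the poly(A) set. With naive sums this low, the tested fibroblast markers passed the filter on low counts largely through the bleomycin libraries, where they are high. Their count is therefore no separate result. Airway epithelium markers summed to 2043 to 3742 CPM in the poly(A) libraries and to 374 to 802 CPM in the total-RNA libraries. Of 4 airway markers tested, 1 was higher after bleomycin. ISRIB 4 (2043 CPM) and ISRIB 2 (2836 CPM) lay below all vehicle libraries (3342 to 3742 CPM), and the other ISRIB libraries lay inside that range. In AT2 sum ISRIB 4 and 2 (170727 and 169075 CPM) also lay below all vehicle libraries (177392 to 181688 CPM). ISRIB 1 and 3 lay just above that AT2 range (181869 and 181909 CPM). Neutrophil markers summed to at most 1.80 CPM in any library and lymphocyte markers to at most 1.68 CPM. Of the macrophage and monocyte markers, Marco and C1qa were at 0 in all libraries of the total-RNA set. The sum of that list is mostly Lyz2, which AT2 cells also express. This sum was 4627, 5644 and 9538 CPM in bleomycin 1, 2 and 4, below all naive libraries (10783 to 12748 CPM). Bleomycin 5 lay inside the naive range and bleomycin 3 above it (13416 CPM). ISRIB 2 and 4 (39037 and 38408.5 CPM) lay above all vehicle libraries (33788 to 37241 CPM). The part of these other cells in the results below was not tested, and in bulk samples fewer cells of a type and less RNA per cell cannot be told apart.

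After bleomycin both effectors were higher: Bak1 rose 3.21-fold and Bax 1.86-fold. The pro-survival gene Bcl2l1 rose 1.49-fold, and the BH3-only gene Bcl2l11 fell to 0.387 times its naive level. Of the 10 family genes, 8 had enough counts to be tested, and these 4 passed (edgeR quasi-likelihood test, Benjamini-Hochberg adjusted p below 0.05 over 11223 genes), 3 higher and 1 lower. Over all genes tested in this comparison 20.5% passed, 11.2% higher and 9.31% lower. The 4 genes were also the only ones of the 8 whose groups did not overlap, against 19.7% of all genes tested. The median log2 fold change of the 8 was -0.02 against 0.0026 over all genes tested, and the median absolute change was 0.46 against 0.31.

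Bak1 (ENSMUSG00000057789, chr17:27019810-27029009, minus strand, GRCm38) encodes the effector that sits constitutively in the mitochondrial membrane. It was at 6.04, 7.05, 4.20 and 4.17 CPM in naive libraries 1 to 4 and at 15.6, 20.2, 15.02, 22.6 and 14.3 CPM in bleomycin libraries 1 to 5. Every bleomycin library was above every naive library, and the log2 difference was 1.68 ± 0.26 (SE; adjusted p = 1.93e-04). It was 1.65 (adjusted p = 6.49e-04) without bleomycin 1 and 2, the libraries of highest fibroblast sum, left out after seeing the data. The remaining bleomycin libraries still had fibroblast sums of 17.5 to 26.4 CPM, against 3.87 to 10.1 CPM in naive ones. The part of fibroblasts was therefore not tested by leaving these out. Exons of Ggnbp1 overlap those of Bak1 on the opposite strand, and no source used here states whether counting used strand. Counts of Ggnbp1 moved the other way, from a mean of 12.4 CPM to 5.93 CPM (log2 fold change -1.07, adjusted p = 0.0209), so the sharing of reads between the pair is uncertain.

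Bax (ENSMUSG00000003873, chr7:45461697-45466898, minus strand), the effector that moves from the cytosol to mitochondria when activated, was at 12.7, 8.12, 13.2 and 12.8 CPM in naive libraries 1 to 4. It was at 25.7, 29.96, 19.2, 18.6 and 15.2 CPM in bleomycin libraries 1 to 5. The groups did not overlap, and the highest values were in bleomycin 1 and 2, the libraries of highest fibroblast sum. The log2 fold change was 0.90 ± 0.24 (SE; adjusted p = 0.0121). It no longer passed without naive 2, the lowest library (0.75, adjusted p = 0.0566), or without bleomycin 1 and 2 (0.60, adjusted p = 0.0794).

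Among the BH3-only genes, Bcl2l11 (ENSMUSG00000027381, chr2:128126038-128162547, plus strand) encodes BIM, which binds all of the main pro-survival proteins and can activate the effectors. It was at 104, 70.9, 87.7 and 113 CPM in naive libraries 1 to 4 and at 42.6, 18.2, 42.7, 43.3 and 35.3 CPM in bleomycin libraries 1 to 5. All 5 bleomycin libraries lay below the lowest naive library, with bleomycin 2 the lowest. The change was -1.37 ± 0.20 on the log2 scale (SE; adjusted p = 1.15e-04). It was -1.21 (adjusted p = 3.93e-05) without bleomycin 1 and 2.

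The other 4 BH3-only genes did not pass. Bbc3 (ENSMUSG00000002083, chr7:16308393-16318205), a p53 target, was at 9.06, 9.40, 13.2 and 5.96 CPM in the naive libraries and at 13.2, 7.76, 6.81, 11.8 and 6.65 CPM after bleomycin. The groups overlapped almost fully, and the log2 fold change of -0.05 ± 0.31 (SE; adjusted p = 0.931) left an interval of 2 standard errors from -0.66 to 0.56. Bad (ENSMUSG00000024959, chr19:6941861-6951899), whose product is inactivated by survival kinases, was at 12.2 to 16.4 CPM in the naive libraries and at 10.8 to 15.5 CPM after bleomycin (-0.14, adjusted p = 0.699). Its exons overlap Gpr137 on the opposite strand, as those of Bid overlap Bcl2l13 and those of Bcl2 overlap D630008O14Rik.

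Bid and Pmaip1 were below the filter on low counts in this comparison. Bid (ENSMUSG00000004446, chr6:120891930-120916853), which caspase-8 cleaves to link death receptors to mitochondria, was at 2.01, 1.92, 2.10 and 1.79 CPM in the naive libraries and at 1.06, 2.89, 2.01, 4.33 and 3.33 CPM after bleomycin. The bleomycin libraries lay on both sides of the naive ones. The group totals were 28 and 68 counts, a ratio of depth-scaled totals of 1.38 (95% exact interval 0.874 to 2.22, counting error only). Pmaip1 (ENSMUSG00000024521, chr18:66458533-66465565), which neutralizes Mcl1, had 2 counts over the naive libraries, both in naive 4, and 19 over the bleomycin libraries. It was at 1.59, 1.08, 0.15, 0 and 0.95 CPM in bleomycin libraries 1 to 5, so 1 of the 5 had none. The ratio of depth-scaled totals was 5.38 (95% exact interval 1.30 to 47.6, counting error only), and with no filter edgeR gave an adjusted p of 0.310.

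Of the pro-survival genes, Bcl2l1 (ENSMUSG00000007659, chr2:152780668-152831728, minus strand) was at 81.2, 85.0, 92.8 and 85.8 CPM in naive libraries 1 to 4. It was at 167, 146, 111, 113 and 107 CPM in bleomycin libraries 1 to 5. All bleomycin libraries were above all naive ones, with bleomycin 1 and 2 well above the other 3. The log2 fold change was 0.58 ± 0.14 (SE; adjusted p = 0.00647) and dropped to 0.36 (adjusted p = 0.0209) without bleomycin 1 and 2. These counts cover the gene as a whole and do not separate its long, pro-survival transcript from its short, pro-death one.

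Mcl1 (ENSMUSG00000038612, chr3:95658788-95663176, plus strand) encodes a short-lived pro-survival protein. It was at 203, 157, 214 and 218 CPM in the naive libraries and at 218, 178, 228, 156 and 222 CPM after bleomycin. The groups covered nearly the same range; the log2 fold change was 0.02 ± 0.14 (SE; adjusted p = 0.938), with an interval of 2 standard errors from -0.25 to 0.29. Bcl2 (ENSMUSG00000057329, chr1:106538178-106714274, minus strand), the founding member of the family, was at 5.37, 4.06, 10.2 and 7.15 CPM in the naive libraries and at 9.79, 3.61, 4.03, 5.88 and 3.64 CPM after bleomycin. Its spread within each group exceeded the difference (-0.33 ± 0.40, SE; adjusted p = 0.610).

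**Figure D1:**
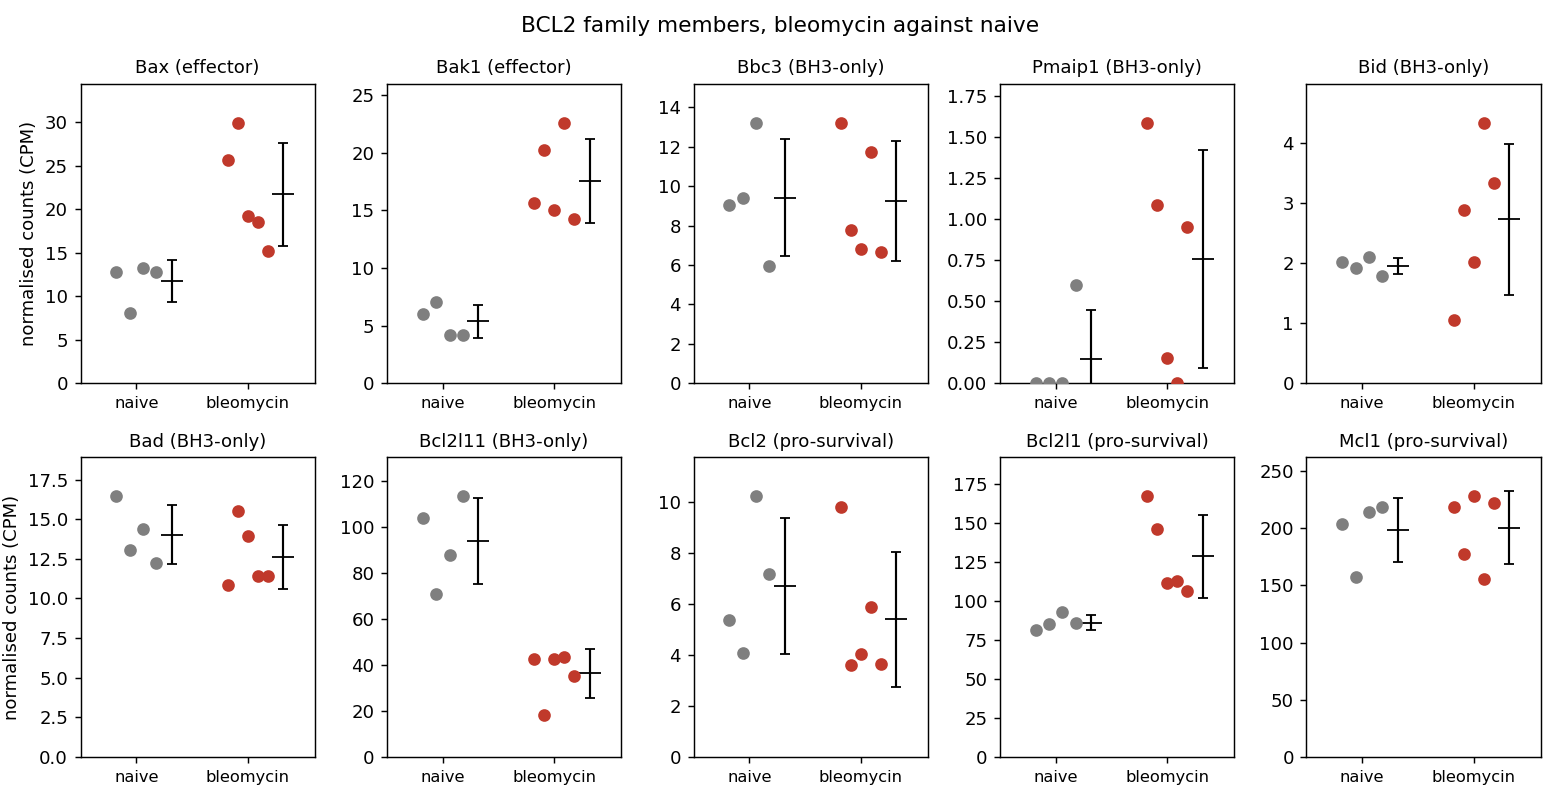
Expression of the 10 BCL2 family genes in each total-RNA library, in CPM (y axes from 0), for 4 naive and 5 bleomycin libraries (x axis); points are libraries, and the marks are the group mean ± SD, drawn no lower than 0. Bax, Bak1 and Bcl2l1 lie higher and Bcl2l11 lower after bleomycin with no overlap, while the Mcl1 and Bbc3 groups cover nearly the same range.

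To compare levels between genes, CPM was divided by the length of each gene's merged exons (CPM per kb). Among the naive libraries of the second set Mcl1 was highest at 58.0 ± 8.18 CPM per kb (SD, n = 4), followed by Bcl2l1 at 18.8 ± 1.05 and Bcl2l11 at 11.7 ± 2.32. Bax (7.44), Bad (5.48), Bbc3 (4.43) and Bak1 (2.23) came next, each with a library range overlapping its neighbour's, and Bcl2 (0.73), Bid (0.55) and Pmaip1 (0.055) were lowest. After bleomycin Mcl1 (58.6) and Bcl2l1 (28.1) kept the top places, Bax (13.8) and Bak1 (7.29) followed, and Bcl2l11 (4.54) stood sixth, where its range overlapped those of Bad (4.94) and Bbc3 (4.35). The total-RNA and poly(A) sets differ in kit and were not compared in any model. In the vehicle libraries the order was Mcl1 (88.8), Bcl2l1 (26.2), Bax (12.3), Bad (9.98), Bbc3 (8.15), Bcl2l11 (4.98) and Bak1 (4.78), then Bcl2 (0.72) and Bid (0.52). In that order only the ranges of Bcl2l11 and Bak1 overlapped. Pmaip1 had 0 counts over the 4 vehicle libraries, which allows up to 0.0625 CPM.

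The summed family level was divided into role shares, per library and per length. The pro-survival genes made up 70.8% ± 1.30 of the family in naive libraries (SD, n = 4) and 70.7% ± 4.25 after bleomycin (SD, n = 5). Within the pro-death remainder the make-up differed: the effectors took 8.53% to 9.41% in naive libraries and 13.2% to 22.0% after bleomycin, and the BH3-only genes took 19.4% to 21.5% and 10.6% to 15.3%. Neither pair of ranges overlapped. Bcl2l11 alone accounted for 10.7% of the family in naive libraries and 3.71% after bleomycin. These shares rest on the values given above and were not tested.

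**Figure D2:**
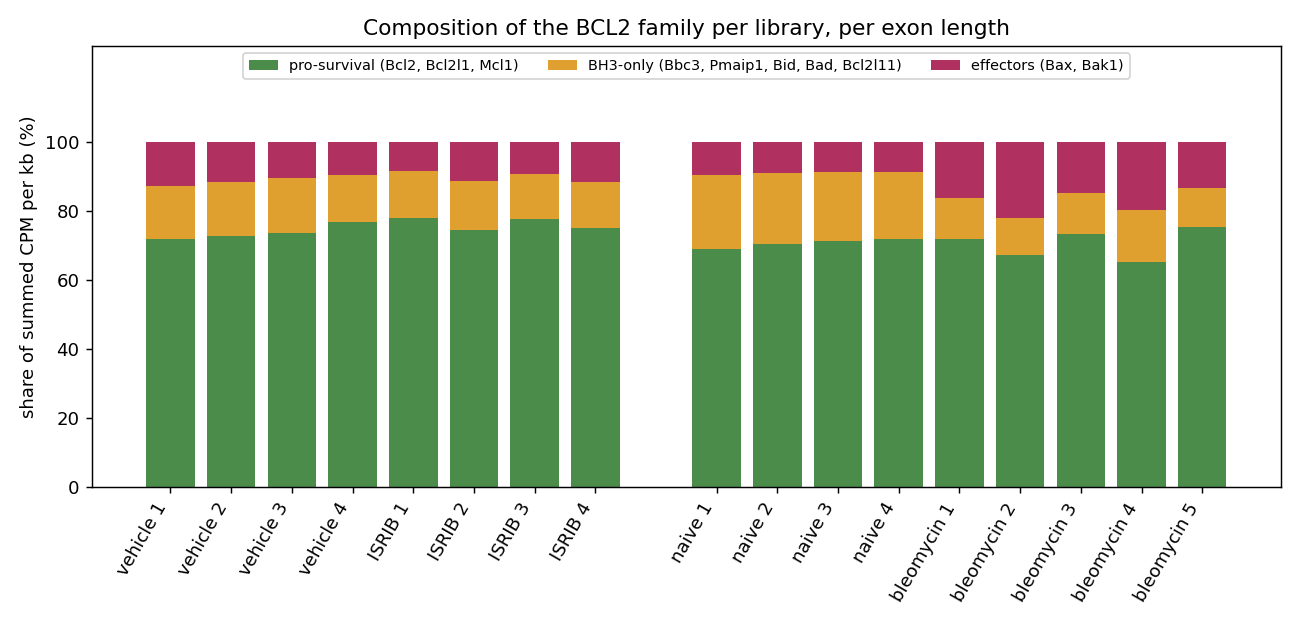
Share of the summed BCL2 family level (CPM per kb) taken by pro-survival, effector and BH3-only genes, in percent (y axis), for each of the 17 libraries (x axis). The pro-survival share averages 70.8% in naive and 70.7% in bleomycin libraries, while the effector share is larger and the BH3-only share smaller in each bleomycin library.

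The contrast of pro-death with pro-survival genes was taken per library as the mean log2 CPM of the tested pro-death genes minus that of the pro-survival genes. After bleomycin it was 0.12 higher than in naive libraries over 5 pro-death and 3 pro-survival genes, with a pooled SD between libraries of 0.24. Naive libraries spanned -0.24 to 0.24 around their own mean and bleomycin libraries -0.22 to 0.37, so the groups overlapped. Leaving out 1 library at a time gave 0.04 to 0.20. The rise of Bax and Bak1 and the fall of Bcl2l11 enter this average with opposite signs. The fall of Bcl2, which was not called (-0.33 ± 0.40, SE), raises the contrast, and the rise of Bcl2l1 lowers it. No p is given, since the genes were chosen by the family and not sampled.

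For ISRIB against vehicle none of the family genes passed the test. Of the 10, 9 had enough counts, and 0 were called by edgeR's quasi-likelihood test, by DESeq2 or by limma-voom. Of the 12054 genes tested, edgeR called 2.20%, 1.10% higher and 1.10% lower. DESeq2 called 408 of them and limma-voom 254. At an unadjusted p below 0.05 in edgeR there were 2 family genes, Bcl2 and Mcl1, against 16.04% of all genes tested. That count fell to 0 without vehicle 2 and to 1 without vehicle 1, vehicle 3, ISRIB 1 or ISRIB 3. The count of all genes called was 265 and fell to 86 without vehicle 1, 102 without vehicle 2 and 159 without ISRIB 4. The median log2 fold change of the 9 was -0.05 against -0.00014 over all genes tested, and their median absolute change was 0.057 against 0.10.

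Both genes below an unadjusted p of 0.05 were pro-survival genes, and they moved in opposite directions. Bcl2 was at 6.58, 8.14, 6.36 and 5.43 CPM in vehicle libraries 1 to 4 and at 5.30, 4.97, 4.83 and 4.39 CPM in ISRIB libraries 1 to 4. All ISRIB libraries were below all vehicle libraries, the highest ISRIB value being just under the lowest vehicle value, and no other family gene was separated (8.65% of all genes tested were). Its log2 fold change was -0.44 ± 0.16 (SE), with an adjusted p of 0.170. Mcl1 was at 272, 288, 293 and 361 CPM with vehicle and at 368, 306, 403 and 323 CPM with ISRIB. The vehicle 4 value lay inside the ISRIB range. Its log2 fold change was 0.21 ± 0.09 (SE) with an adjusted p of 0.260. With no filter on low counts it was 0.20 and passed (adjusted p = 0.0235). The size of the Mcl1 change was nearly the same there, while the genes called rose from 265 to 648. Under every other alternative Mcl1 did not pass (adjusted p = 0.0824 to 0.519). Among ISRIB libraries the higher Mcl1 values were in ISRIB 1 and 3, which differed less from each other than from ISRIB 2 and 4. Chi-square per degree of freedom over 11304 genes was 3.64 for ISRIB 1 and 3, 4.54 for ISRIB 2 and 4, and 8.14 to 9.48 across. Bcl2l1 was at 116 to 127 CPM with vehicle and at 112 to 124 CPM with ISRIB (-0.05, adjusted p = 0.756; interval of 2 standard errors -0.15 to 0.06).

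The effector groups overlapped. Bax was at 18.2 to 20.4 CPM with vehicle and at 15.6 to 20.6 CPM with ISRIB (-0.05, interval -0.24 to 0.15, adjusted p = 0.879). Bak1 was at 9.80 to 14.1 CPM and at 9.96 to 13.4 CPM (-0.02, interval -0.28 to 0.24, adjusted p = 0.961). Both signs turned when single libraries were left out.

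The BH3-only genes likewise had overlapping groups. Bcl2l11 was at 38.1 to 43.5 CPM with vehicle and at 33.95 to 42.2 CPM with ISRIB (-0.06, interval -0.21 to 0.10, adjusted p = 0.789). Bbc3 was at 15.96 to 18.6 CPM and at 14.9 to 16.3 CPM (-0.16, interval -0.34 to 0.02, adjusted p = 0.405). Only ISRIB 1 reached the vehicle range of Bbc3. Bad was at 23.7 to 27.6 CPM and at 23.7 to 28.7 CPM (0.0077, adjusted p = 0.978), and Bid at 1.57 to 2.10 CPM and at 1.58 to 2.77 CPM (0.29, interval -0.22 to 0.80, adjusted p = 0.633). Pmaip1 was detected by 1 count, in ISRIB 2. The pro-survival share of the family was 73.9% ± 2.11 with vehicle and 76.4% ± 1.73 with ISRIB (SD, n = 4 each). The pro-death minus pro-survival contrast was 0.09 higher with ISRIB, over 6 and 3 genes, with a pooled SD of 0.076. The groups overlapped. This contrast and the share point opposite ways, since they weigh the genes differently. In the contrast Bcl2 (-0.44, at 4.39 to 8.14 CPM) counts as much as Mcl1 (0.21), whereas the share is mostly Mcl1.

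**Figure D3:**
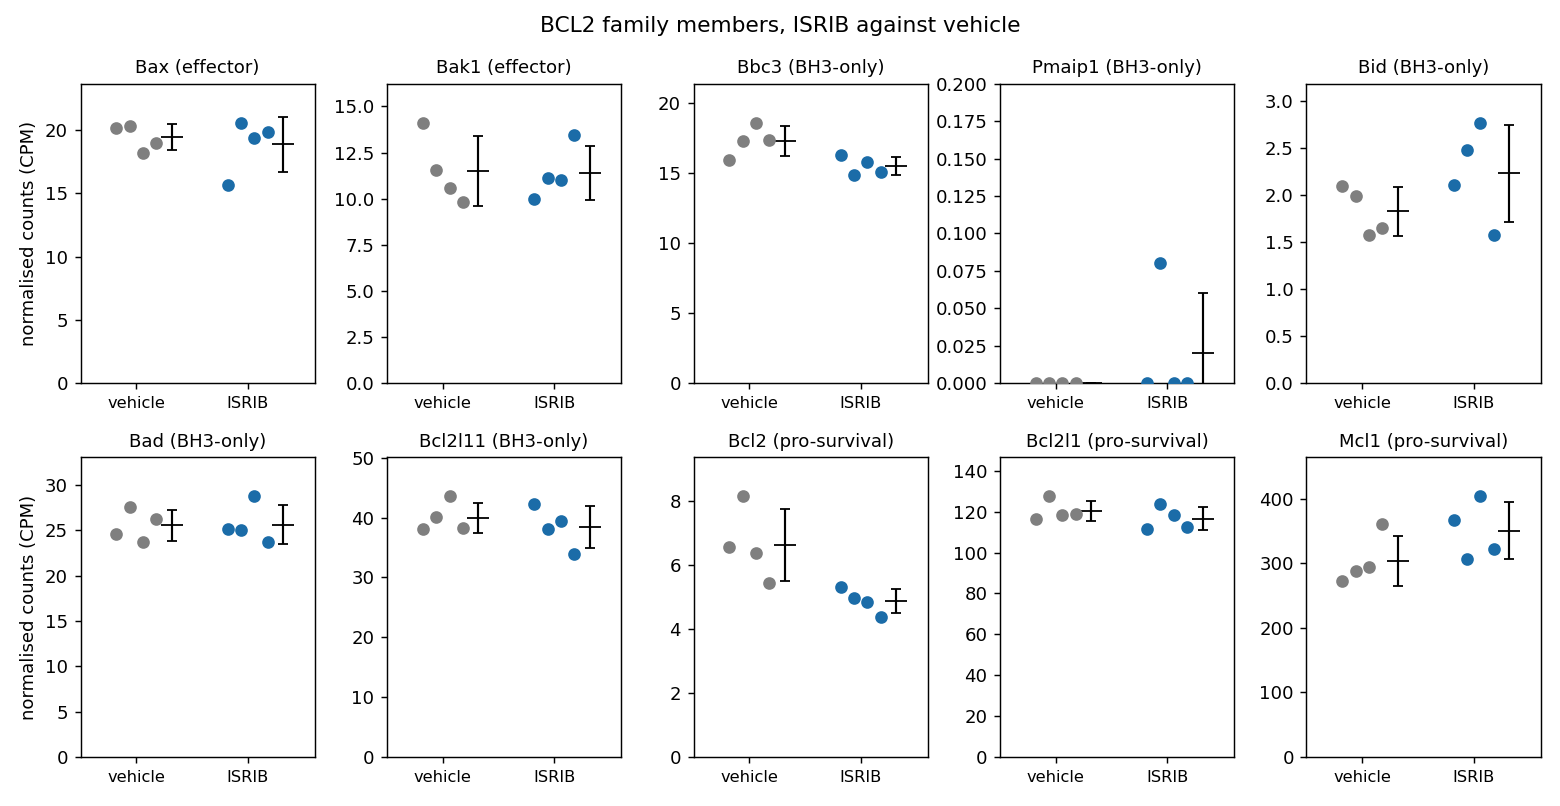
Expression of the 10 BCL2 family genes in each poly(A) library, in CPM (y axes from 0), for 4 vehicle and 4 ISRIB libraries (x axis); points are libraries, and the marks are the group mean ± SD, drawn no lower than 0. Bcl2 is the only tested gene whose groups do not overlap, from 5.43 to 8.14 CPM with vehicle and from 4.39 to 5.30 CPM with ISRIB.

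**Figure D4:**
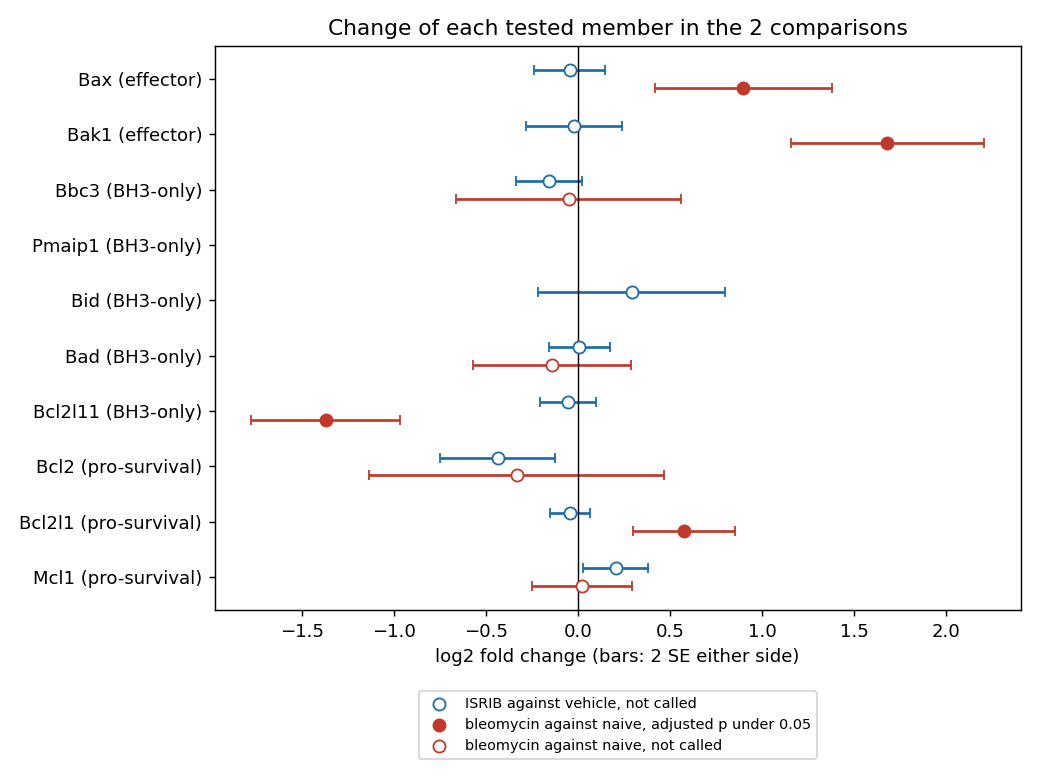
Log2 fold change with 2 standard errors (x axis) of each tested BCL2 family gene (y axis) for ISRIB against vehicle and for bleomycin against naive, each fitted within its own kit. Bak1 and Bax lie to the right and Bcl2l11 to the left in the bleomycin comparison, and the ISRIB values lie between -0.44 and 0.29.

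Wider gene lists of the same pathway are described by their counts. In the bleomycin comparison, of 15 other BCL2 family genes 8 were tested and 2 passed, both lower, a share near the 20.5% of all genes called. Bmf, a BH3-only gene linked to cell detachment, had a mean of 50.8 CPM in naive and 35.0 CPM in bleomycin libraries (-0.53 ± 0.18, SE; adjusted p = 0.0405); Bik, another BH3-only gene, was at 10.2 and 5.21 CPM (-0.98 ± 0.34, SE; adjusted p = 0.0481). Both calls depended on single libraries: Bmf lost its call under 10 of 16 alternatives, keeping it among single left-out libraries only without naive 2 or bleomycin 3 (adjusted p up to 0.178), and Bik under 11 of 16, keeping it only without bleomycin 4 (up to 0.144). The median over the 8 was -0.27, against 0.0026 over all genes tested.

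Of the death receptor genes 9 of 10 were tested, and 4 passed higher and 1 lower, against 11.2% and 9.31% of all genes tested. Tnfrsf21 (DR6) went from a mean of 0.77 to 5.76 CPM (2.88, adjusted p = 0.00523) and Fas from 1.79 to 5.61 CPM (1.64, adjusted p = 0.0144). Both passed the filter on low counts only through the bleomycin libraries, where they are high, so they enter the count of calls by that route. Tnfrsf10b, below, also needed bleomycin libraries to pass it, with 8 counts (1.71 CPM) in naive 2. Without bleomycin 1, 2, 3 or 5, Tnfrsf21 had too few counts to be tested. Casp8, the initiator caspase of the receptors, went from 22.3 to 33.5 CPM (0.57, adjusted p = 0.0183), and Tnfrsf10b (TRAIL receptor) from 2.84 to 7.45 CPM (1.42, adjusted p = 0.0418). Cflar, the inhibitor of Casp8, fell from 127 to 81.3 CPM (-0.64, adjusted p = 0.00106). The groups of Cflar, Tnfrsf21, Fas and Casp8 did not overlap, and those of Tnfrsf10b did. Over all genes tested 19.7% had groups without overlap. The Fas call was lost without naive 2, 3 or 4 (0.0520 to 0.0562), and the Casp8 call without naive 1, 3 or 4 (0.0547 to 0.0716) or without bleomycin 1 and 2 (0.0604). The Tnfrsf10b call was lost under 10 of 16 alternatives, among them each naive library and bleomycin 1, 2 or 3 left out (0.0593 to 0.131). Without both bleomycin 1 and 2 its change was 0.83 (adjusted p = 0.245).

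Among 13 caspase cascade genes, of which 12 were tested, Parp1, the caspase-cleaved DNA repair enzyme, was the only call (48.5 to 78.6 CPM, 0.70, adjusted p = 0.00500). That is a smaller share than the 20.5% of all genes called. The median over the 12 was 0.28. The untested gene was Dffb, the caspase-activated DNase, at 2.35 to 6.04 CPM in naive and 0.929 to 1.99 CPM in bleomycin libraries, below the filter. Of the inhibitors of apoptosis 5 of 8 were tested, and 1 passed: Birc5 (survivin), also known as a gene of dividing cells, was at 0 to 1.80 CPM in naive and at 2.12 to 20.1 CPM in bleomycin libraries (3.21 ± 0.72, SE; adjusted p = 0.00388). Birc5 too passed the filter only through the bleomycin libraries, and had too few counts to be tested without bleomycin 2, 3, 4 or 5. The other 4 had negative fold changes. The share of this list that passed was near the 20.5% of all genes called.

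Upstream regulators of the family gave 1 gene higher and 2 lower of 13 tested, a share near the 20.5% of all genes called. Jun, an AP-1 subunit, fell from 318 to 176 CPM (-0.86, adjusted p = 2.86e-04) and Mdm4, a p53 inhibitor, from 119 to 82.4 CPM (-0.54, adjusted p = 0.0105). Ywhaz, a 14-3-3 protein that binds Bad, rose from 183 to 255 CPM (0.48, adjusted p = 0.0108); its call was lost without naive 4 (adjusted p = 0.0524). Trp53 (0.56 ± 0.30, SE; adjusted p = 0.203), Mdm2 (0.36 ± 0.17, SE; adjusted p = 0.151) and Foxo3 (-0.35 ± 0.14, SE; adjusted p = 0.0908) did not pass. With these standard errors they are not shown to be unchanged.

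In the ISRIB comparison 3 upstream regulators were higher and 1 lower of 15 tested, in the longest of the lists, where 1.10% of all genes were called in each direction. Foxo3, a forkhead factor known to act on Bcl2l11 and Bbc3, was at 155 to 205 CPM with vehicle and at 279 to 292 CPM with ISRIB (0.67 ± 0.08, SE; adjusted p = 4.53e-04). Foxo1 rose from a mean of 48.0 to 62.2 CPM (0.37, adjusted p = 0.0152) and Jun from 167 to 220 CPM (0.40, adjusted p = 0.0137). Pim1, a kinase that phosphorylates Bad, fell from 47.9 to 26.7 CPM (-0.85, adjusted p = 9.93e-04). The Foxo1 call was lost without vehicle 1 or 2 (0.0617 and 0.0584) and the Jun call without vehicle 1 (0.0546).

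Of 11 other BCL2 family genes tested with ISRIB, 1 passed: Bmf fell from a mean of 113 to 80.1 CPM (-0.50 ± 0.10, SE; adjusted p = 0.0147), a call lost without vehicle 2 (0.0582). Its groups overlapped, at 87.3 to 133 CPM and 72.2 to 90.6 CPM. All 13 caspase cascade genes were tested and Casp9, the initiator that joins the apoptosome, was lower (38.4 to 31.8 CPM, -0.27, adjusted p = 0.0413). That call was lost with any library except ISRIB 1 left out (0.0616 to 0.120). None of 5 inhibitors of apoptosis and none of 9 death receptor genes passed edgeR's test. Of these, 0 and 3 had an unadjusted p below 0.05, against 16.04% of all genes tested. Over all genes tested 2.20% were called.

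**Figure D5:**
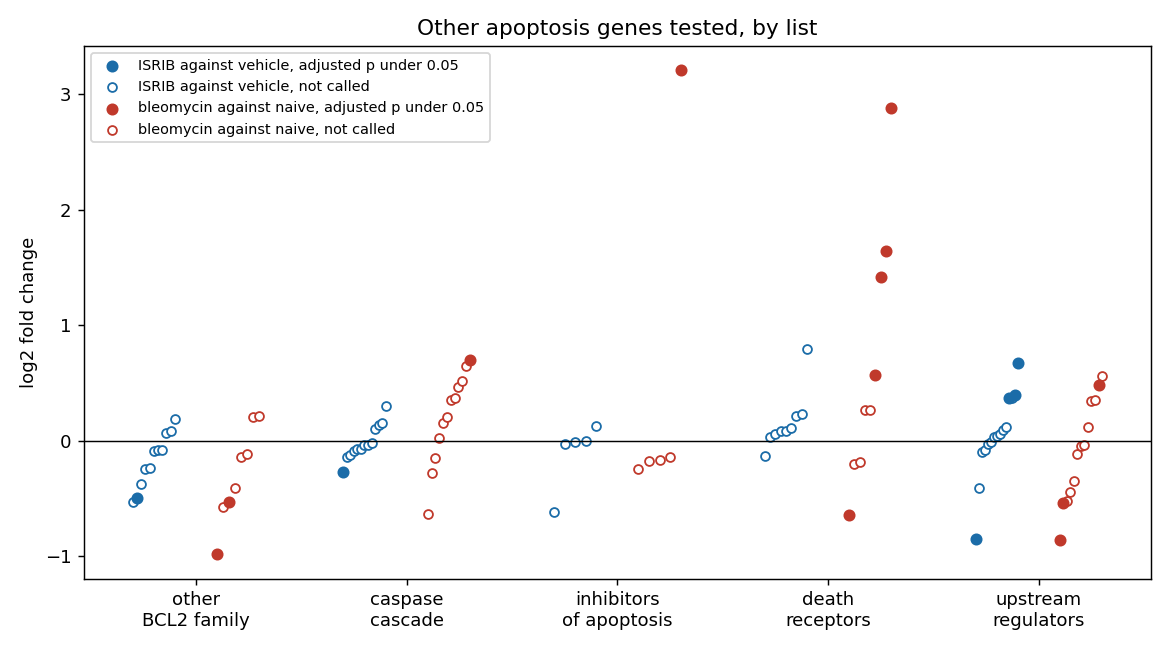
Log2 fold change (y axis) of each tested gene of the 5 wider lists (x axis) in the ISRIB and bleomycin comparisons, with genes past the test marked. Among genes past the test, Foxo3 (0.67) and Pim1 (-0.85) lie farthest from 0 with ISRIB, and Birc5 (3.21) and Tnfrsf21 (2.88) after bleomycin; Tnfrsf10b with ISRIB (0.80) did not pass.

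For the 4 family genes that differed after bleomycin, the tested genes of at least 5 CPM with the most similar log2 CPM over the 9 total-RNA libraries were listed, out of 9157. Oasl2 was nearest to Bax (Pearson r = 0.983), Sae1 to Bak1 (0.979), Fgf1 to Bcl2l11 (0.996) and Brip1os to Bcl2l1 (0.982). The libraries share the difference between the groups, so these are descriptions with no test.

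The 250 bases upstream of 3 of those genes are shown because their counts differed after bleomycin; sequences are from the RefSeq promoter table (GRCm38.p6), 5′ to 3′ on the gene's strand. The Bak1 window lay inside an annotated exon and is not shown. Capitals mark matches, on either strand, to 5 motifs: the GC box GGGCGG, the AP-1 site TGANTCA, the FOXO site TGTTTAC, the E-box CACGTG and the p53 half-site. No match overlaps another.
Bax, chr7:45466899-45467148: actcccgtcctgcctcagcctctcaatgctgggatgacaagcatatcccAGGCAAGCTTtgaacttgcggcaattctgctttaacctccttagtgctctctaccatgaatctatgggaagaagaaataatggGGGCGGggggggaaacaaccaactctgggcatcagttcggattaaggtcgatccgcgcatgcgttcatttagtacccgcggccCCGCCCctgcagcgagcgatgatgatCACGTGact
Bcl2l11, chr2:128125788-128126037: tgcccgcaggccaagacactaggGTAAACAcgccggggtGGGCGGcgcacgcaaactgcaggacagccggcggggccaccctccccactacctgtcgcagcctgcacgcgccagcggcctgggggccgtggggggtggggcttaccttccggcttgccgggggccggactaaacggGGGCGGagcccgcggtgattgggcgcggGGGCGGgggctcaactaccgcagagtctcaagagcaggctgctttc
Bcl2l1, chr2:152831729-152831978: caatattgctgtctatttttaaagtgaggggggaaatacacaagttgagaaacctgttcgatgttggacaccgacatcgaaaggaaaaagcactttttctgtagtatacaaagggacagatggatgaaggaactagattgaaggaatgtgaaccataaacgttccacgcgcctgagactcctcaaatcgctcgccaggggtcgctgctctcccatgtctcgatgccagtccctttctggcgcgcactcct

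The Bax window held 1 p53 half-site, 2 GC boxes and 1 E-box, and the Bcl2l11 window held 1 FOXO site and 3 GC boxes. The Bcl2l1 window held none of the 5. These are the outermost windows: a further Bcl2l11 window, chr2:128127325-128127574, held 2 GC boxes and no FOXO site, and the other Bcl2l1 windows, inside exons, held none. Over the 32851 windows of the table, 7.13% held a p53 half-site, 32.7% a GC box, 6.02% an E-box, 3.17% a FOXO site and 6.75% an AP-1 site. The median GC content of all windows was 52.4%, against 54.0% for Bax, 72.0% for Bcl2l11 and 47.6% for Bcl2l1. A match describes the letters of the window and does not show binding.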

How the data were processed

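Raw gene counts (43430 Ensembl gene models, 42546 with a symbol in GENCODE M21) are used as deposited; per the submitters' processing notes, bcl2fastq 2.19.1, FastQC, Trimmomatic 0.36, STAR 2.6.0, HTSeq 0.11.2 and mm10 were used. For the annotation, counting mode and strand setting: not given in the sources used here. Each set was fitted alone with edgeR 4.0.16 (R 4.3.3): filterByExpr by group (minimum count 10, total 15), TMM scaling, glmQLFit and glmQLFTest, 2-sided, Benjamini-Hochberg adjustment over all genes tested, called below 0.05. Standard errors are the absolute log2 fold change over the square root of F. CPM used TMM-scaled library sizes. The fits were tested on simulated counts. The bleomycin fit recovered 1 of 197 genes given a log2 change of 0.5 and 121 of 193 given 1. The ISRIB fit recovered 126 of 195 and 182 of 195. A gene that did not pass after bleomycin is not shown to be unchanged. Total counts limit precision for genes of a few CPM; replicates differed by more than counting noise. Alternatives were RLE factors, no filter, DESeq2 1.42.0, limma-voom (limma 3.58.1), a replicate block, removal of 359 ribosomal RNA models and leaving out single libraries; leaving out bleomycin 1 and 2 was added after seeing the data. The family genes, wider lists, markers and motifs were chosen with earlier results of these data known. Named genes are all 10 family genes, up to 4 called genes per direction from each wider list, and for each called family gene the tested gene nearest in pattern (of 3 ranked).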

Additional observations from a re-analysis of the deposited data

Results flagged for a closer look

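A library was set apart where its gap to the nearest of the others, over the group's whole range, passed Dixon's 95% critical value for its size. Chance alone sets apart about 1 in 20 groups, and 39 groups were looked at. Bax in naive 2, at 8.12 CPM, lay below the other naive libraries (12.7 to 13.2 CPM), with a ratio of 0.909; the Bax call after bleomycin was lost without this library. Pmaip1 in naive 4, at 0.596 CPM, rested on 2 counts with 0 in the other naive libraries. Pmaip1 in ISRIB 2, at 0.0801 CPM, rested on 1 count with 0 in the other ISRIB libraries.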

How the results depend on the processing

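The call count for bleomycin against naive stayed within 1.5 times of 2304 under each alternative run (1554 to 2589). For ISRIB against vehicle, 265 calls became 648 with no filter on low counts and 408 with DESeq2, and 86 to 269 with 1 library left out. Bak1, Bcl2l1 and Bcl2l11 kept their calls after bleomycin under each alternative run. Signs near 0 turned, with no call, when single libraries were left out: with ISRIB, Bax ranged from -0.093 to 0.043, Bak1 from -0.11 to 0.089 and Bad from -0.047 to 0.047, and after bleomycin Bbc3 ranged from -0.22 to 0.15 and Mcl1 from -0.077 to 0.10. With the replicate number as a block, Bbc3 was 0.042 and Mcl1 -0.026 after bleomycin, 277 genes were called with ISRIB and 2187 after bleomycin, and family calls numbered 0 and 4 as without it; the calls of Casp9 with ISRIB and of Bmf, Bik, Fas and Tnfrsf10b after bleomycin were lost (adjusted p of 0.0516 to 0.0869). Same-numbered libraries did not deviate together (r from -0.10 to 0.09). The labels state no pairing, and this check cannot exclude one. Depth limits Bid and Pmaip1 in the total-RNA set, and no gene at a few CPM there can be read finely.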
